A study of Mus musculus with 12 samples.

Results

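The genes described here are those of the cytosolic ribosomal proteins, followed through activation of mouse CD4+ T cells with and without Keap1. They were chosen by symbol (Rpl or Rps followed by a number, Rplp0 to Rplp2 and Rpsa, without -ps rows and the Rps6k kinases) with at least 10 counts in at least 3 of the 12 libraries. Of 88 rows that match the symbols among 32699 genes in the table, 86 passed, and all 86 were among the 13196 genes tested. The other two, the paralogs Rpl10l and Rpl3l, were at 0 counts in every library and at no more than 1 count, respectively. By their textbook roles the 86 comprise 46 large-subunit and 31 small-subunit proteins, together called the 77 subunit proteins here. The rest are 6 paralogs (Rpl22l1, Rpl36al, Rpl39l, Rpl7l1, Rps27l and Rps4l), 2 retrocopies (Rpl37rt and Rpl32l) and Rps19bp1. Rps19bp1 carries the name of Rps19 but encodes a protein that binds it and is not itself part of the ribosome. Rps4l is annotated as a transcribed processed pseudogene, as is Rpl37rt, and was kept among the paralogs here. The 86 genes lie on 19 chromosomes, 4 of them on X.

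The ribosome is assembled in the nucleolus from ribosomal RNAs and one copy of nearly every ribosomal protein, so that the proteins are made in matched amounts. Their mRNAs are abundant and most begin with a C followed by a run of pyrimidines, the 5′ terminal oligopyrimidine (TOP) tract, through which mTORC1 and the RNA-binding protein Larp1 control their translation and stability. A resting T cell that is activated builds ribosomes before it divides, and Keap1 brings the transcription factor Nrf2 to the ubiquitin ligase that has it destroyed.

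Naive CD4+ T cells were stimulated in vitro by anti-CD3 plus anti-CD28 and their RNA was sequenced. The 4 groups, each of 3 libraries, were genotype WT at 24 h, Keap1-KO (KKO) at 24 h, WT at 48 h and KKO at 48 h of stimulation. All groups received both antibodies, and no unstimulated library was analysed here. The sources used here do not give the promoter or cell type behind the deletion. The labels do not say whether the 3 libraries came from separate animals, though sex-linked readings, given below, differed within each group. The p-values measure the spread between these libraries, which may be technical in part.

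Library totals were 23.7 to 32.6 M (mega) counts at 24 h and 17.8 to 22.4 M at 48 h, so depth and time cannot be told apart. Levels are given in CPM, counts per M of the TMM-scaled library size. Keap1 was at 106 to 109 CPM in WT and 15.7 to 17.5 CPM in KKO at 24 h, and at 122 to 132 and 20.2 to 22.5 CPM at 48 h. All 7 CD4 T cell markers were present, at 2155 to 2767 CPM in sum. The 3 B cell markers summed to 7.09 to 10.5 CPM in WT and 12.8 to 23.3 CPM in KKO. The 2 CD8 markers summed to 7.02 to 8.11 CPM in WT and 9.36 to 10.8 CPM in KKO at 24 h. At 48 h they summed to 8.32 to 10.6 CPM in WT and 12.7 to 13.4 CPM in KKO. Macrophage and dendritic, natural killer and erythroid markers summed to at most 2.54 CPM each. Both Xist and the Y-linked Ddx3y were above 1 CPM in 2 libraries, the first KKO replicate of 24 h and the third of 48 h, and counts without them are given where they differ. In WT at 24 h Xist was at 637, 399 and 0.0357 CPM and Ddx3y at 0, 0 and 53.9 CPM, so these libraries did not all come from 1 animal.

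The start of a ribosomal protein gene is where the shared TOP tract lies, so 30-base windows near the RefSeq starts of 10 genes are shown. The genes were chosen to span the strongest rise, the weakest rise and the falls with time. Where a pyrimidine run was found the window is centred on it, and the listed start can lie outside the window. Relative to that start the run began at 28 in Rpl36a, 25 in Rpl37a, -22 in Rps25 and -32 in Rpl7l1 (bases, negative before the start). Whether a marked run is the TOP tract was not tested. RefSeq promoters of GRCm38.p6 held 65 of the 86 genes. Capitals mark the longest run of pyrimidines that begins with C within 50 bases of the start, and lines without capitals have no such run of at least 6 bases.
Rpl22l1, chr3:28805500-28805529 (+): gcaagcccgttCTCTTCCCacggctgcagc
Rpl39, chrX:37085198-37085227 (-): gcctctagcgaCTTCTTCTaatcgcgttct
Rpl13, chr8:123102324-123102353 (+): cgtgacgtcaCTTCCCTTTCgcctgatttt
Rpl28, chr7:4792953-4792982 (+): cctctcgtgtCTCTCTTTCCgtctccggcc
Rps6, chr4:86857349-86857378 (-): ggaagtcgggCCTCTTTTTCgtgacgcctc
Rpl36a, chrX:134585673-134585702 (+): ggctctagCCTCTCTCTTTCCgagctgcta
Rps25, chr9:44407684-44407713 (+): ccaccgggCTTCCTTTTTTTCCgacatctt
Rpl37a, chr1:72711275-72711304 (+): gcattgcgtCCCTTCCTCTTCggacttggg
Rpl7l1, chr17:46782670-46782699 (-): gtcgaggcgggCCTCTCTaccccgcccggt
Rps19bp1, chr15:80264292-80264321 (-): cagggcggaagtagctcgccgcgtgtgggc
A C followed by at least 5 C or T on the sense strand within 50 bases of a listed start was found in 59 of 65 genes (90.8%), against 60.5% of the 9420 tested genes with a promoter sequence and 70.6% of 68 mitochondrial ribosomal protein genes. With at least 7 C or T after the C, a length chosen after the first shares were seen, the shares were 81.5%, 31.8% and 32.4%. The median log2 change with time of the genes with the longer run was 0.25 in WT and 0.47 in KKO, and of those without it 0.20 and 0.39. With the shorter run the medians were 0.23 and 0.46, and without it 0.24 and 0.42. Of the 57 subunit proteins with a promoter sequence, 48 had the longer run, with medians of 0.25 and 0.50 against 0.23 and 0.44 without it. The shorter run was in 53 of the 57, with medians of 0.25 and 0.47 against 0.30 and 0.51 without it. CCGGAAG, the core of an Ets site, was found on either strand from 250 bases before to 50 after the start in 40% of the 65 genes and 20.8% of tested genes. TATAAA within 50 bases of the start was in 7.69% and 2.2%. These matches describe letters, not sites in use.

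From 24 h to 48 h the ribosomal protein mRNAs rose together in both genotypes. Their summed share of all gene counts was 7.88, 8.47 and 8.27% in WT and 8.16, 7.63 and 7.75% in KKO at 24 h. At 48 h it was 9.17, 9.95 and 10.28% in WT and 11.37, 10.05 and 10.82% in KKO, and every 48 h library was above every 24 h library. The mean rose from 8.205 ± 0.301% to 9.80 ± 0.570% (SD, n = 3) in WT and from 7.85 ± 0.274% to 10.7 ± 0.662% in KKO. Averaged over genotypes the share was 2.25 percentage points higher at 48 h (exact permutation test within genotype, two-sided, p = 0.005, the smallest that 400 arrangements can give; adjusted p = 0.00857 over 12 tests). Both subunits took part, with time differences of 0.866 points for the small and 1.39 points for the large subunit (same exact permutation test, p = 0.005 each).

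**Figure D1:**
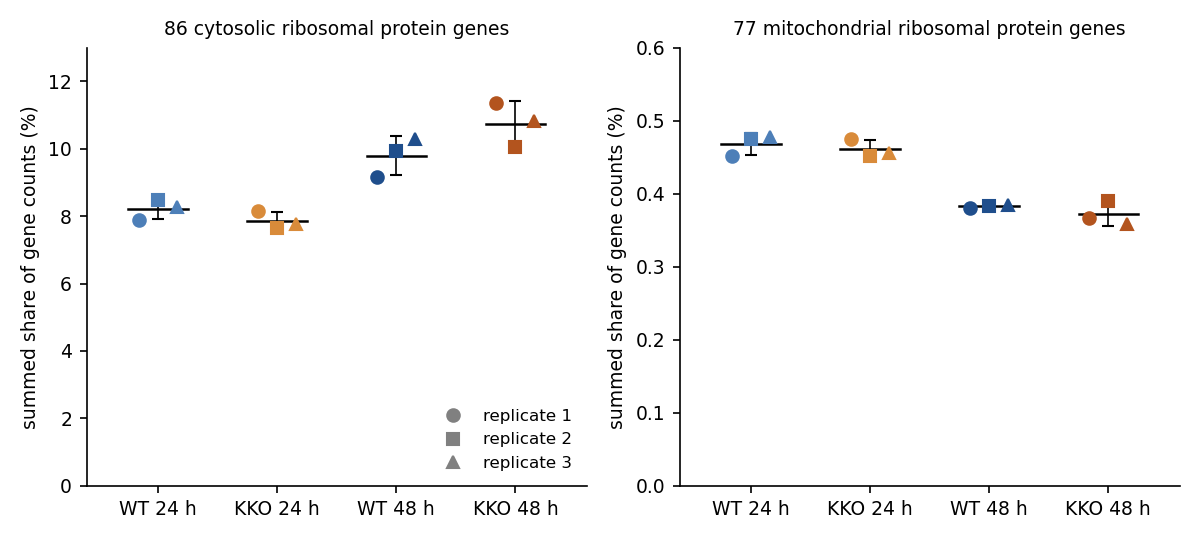
Summed share of gene counts (%, vertical axes) of the 86 cytosolic and the 77 mitochondrial ribosomal protein genes in each library of the 4 groups; points are libraries, lines group means and bars 1 SD. The cytosolic share is higher in all 48 h libraries, from 9.17 to 11.4%, than in all 24 h libraries, from 7.63 to 8.47%, while the mitochondrial share is lower.

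In WT, 59 of the 86 genes rose and 2 fell with time (edgeR, adjusted p under 0.05), with a median log2 fold change of 0.23, beside 60.8% of all tested genes called, 31.0% higher and 29.7% lower. In KKO, 81 rose and 2 fell, with a median of 0.45, beside 67.8% of tested genes called, 34.4% higher and 33.4% lower. All 77 subunit proteins rose in KKO, by log2 changes from 0.18 for Rpl37a to 0.77 for Rpl39; 55 of 77 did in WT. For all tested genes the median was close to 0, at -0.00061 in WT and 0.0021 in KKO.

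Rpl39, a small large-subunit protein at the exit of the peptide tunnel, rose the most among subunit proteins in KKO. Rpl39 stood at 188, 212 and 209 CPM in WT at 24 h, at 199, 180.1 and 193 CPM in KKO at 24 h, at 255, 283 and 297 CPM in WT at 48 h and at 347, 304 and 327 CPM in KKO at 48 h. The 48 h values were all above the 24 h values, with log2 changes of 0.46 ± 0.07 (SE; adjusted p = 8.33e-05) in WT and 0.77 ± 0.07 (SE; adjusted p = 3.66e-07) in KKO. Rps6, the small-subunit protein phosphorylated downstream of mTORC1, rose as well. Rps6 stood at 1567, 1697 and 1639.8 CPM in WT at 24 h, at 1657, 1478 and 1557 CPM in KKO at 24 h, at 1945, 2107 and 2196 CPM in WT at 48 h and at 2574, 2163 and 2503 CPM in KKO at 48 h. It rose by 0.35 ± 0.07 (SE; adjusted p = 6.89e-04) in WT and 0.63 ± 0.07 (SE; adjusted p = 2.36e-06) in KKO. Rpl10a and Rpl13, both of the large subunit, rose by 0.49 and 0.43 in WT and by 0.66 and 0.64 in KKO.

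The stalk proteins moved with the rest. Rplp0, the base of the stalk that engages elongation factors, rose by 0.35 ± 0.07 (SE; adjusted p = 3.73e-04) in WT and 0.55 ± 0.07 (SE; adjusted p = 3.80e-06) in KKO, and its partners Rplp1 and Rplp2 by 0.39 and 0.25 in WT and 0.61 and 0.47 in KKO. Rpsa, the laminin receptor precursor of the small subunit, rose by 0.25 ± 0.07 (SE; adjusted p = 0.00688) and 0.48 ± 0.07 (SE; adjusted p = 2.53e-05). Rpl37a had the smallest rise of the subunit proteins in KKO, at 0.18 ± 0.07 (SE; adjusted p = 0.0258), and Rps25 was also low, at 0.23. Rpl28 rose by 0.65.

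**Figure D2:**
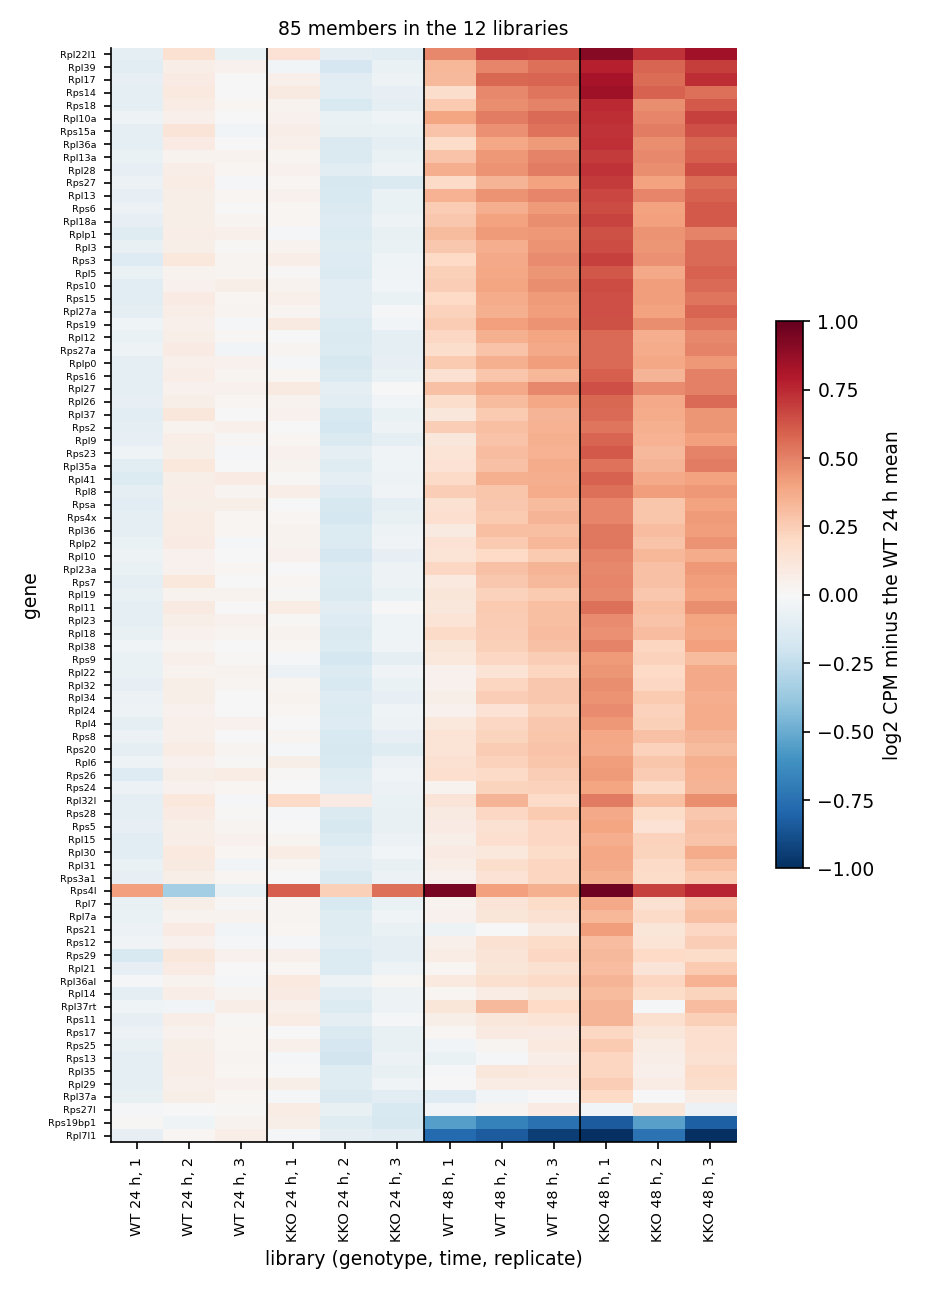
log2 CPM of 85 of the 86 genes (rows, sorted by change with time in KKO; Rpl39l, which has a 0, is left out) minus the mean of the WT 24 h libraries, in the 12 libraries (columns); colours saturate at 1 and -1. All but a few rows rise together at 48 h, and Rps19bp1 and Rpl7l1 fall.

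In most libraries the subunit proteins deviated from their group mean in the same direction. In WT replicate 1 at 24 h all 77 subunit proteins were below the group mean, and in WT replicate 2 all 77 were above. In KKO at 48 h replicate 1 had all 77 above and replicate 2 all 77 below, with a median deviation of 0.10 and -0.10 in log2. In KKO replicate 3 they were split, with 32 above and 45 below at 24 h and 53 above and 24 below at 48 h. Around the medians of the libraries the genes scattered with an SD of 0.01 to 0.03. 

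Small- and large-subunit sums kept nearly a constant ratio. The log2 ratio of small to large was lower by 0.03 at 48 h and by 0.01 in KKO, which corresponds to 0.982-fold and 0.993-fold. These differences are small, and both exceeded the spread between libraries (exact permutation tests, two-sided, p = 0.005 each, adjusted p = 0.00857).

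The 6 paralogs did not move as 1 group. Rpl36al rose with the subunit proteins, by 0.15 ± 0.06 (SE; adjusted p = 0.0382) in WT, where the call was lost without any 1 of WT replicates 1 and 3 at 24 h, WT replicates 2 and 3 at 48 h or KKO replicate 3 at 24 h, and by 0.28 ± 0.06 (SE; adjusted p = 6.52e-04) in KKO. Rpl22l1, the paralog of Rpl22 that can take its place in the ribosome, had the largest rise of all 86. Rpl22l1 stood at 44.4, 52.6 and 45 CPM in WT at 24 h, at 52.1, 44.1 and 43.5 CPM in KKO at 24 h, at 65.8, 75.4 and 74.9 CPM in WT at 48 h and at 88.5, 77.9 and 84.5 CPM in KKO at 48 h. It rose by 0.61 ± 0.09 (SE; adjusted p = 2.84e-05) in WT and 0.84 ± 0.09 (SE; adjusted p = 8.25e-07) in KKO. Its expected counts were not whole in any of the 12 libraries, so RSEM divided reads between it and other genes and its level is uncertain. Rpl7l1, a paralog of Rpl7 that takes part in ribosome biogenesis, fell instead. Rpl7l1 stood at 267, 286 and 296 CPM in WT at 24 h, at 280.1, 265 and 261 CPM in KKO at 24 h, at 166, 159 and 147 CPM in WT at 48 h and at 139, 170.0 and 135 CPM in KKO at 48 h. Its log2 change was -0.85 ± 0.08 (SE; adjusted p = 5.78e-07) in WT and -0.86 ± 0.08 (SE; adjusted p = 3.49e-07) in KKO, with 48 h values below all 24 h values; its expected counts were likewise not whole in all 12 libraries. Rps19bp1 was the other gene that fell, at -0.66 ± 0.09 (SE; adjusted p = 1.37e-05) in WT and -0.65 ± 0.09 (SE; adjusted p = 1.02e-05) in KKO. Rps27l, a p53-responsive paralog of Rps27, gave 0.03 and 0.06 with neither passing the test. Rps4l stood at 2.34 to 5.80 CPM and passed in WT only, at 0.56 ± 0.21 (SE; adjusted p = 0.0314), and the difference between genotypes was not called (-0.22, adjusted p = 0.692); that call was lost without WT replicate 1 at 48 h (0.36, adjusted p = 0.172), replicate 2 at 24 h (0.40, adjusted p = 0.139) or replicate 3 at 24 h (0.52, adjusted p = 0.0895). Rpl39l was at 0 to 0.739 CPM.

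Within a library, the ratio of paralog to partner does not depend on scaling. Rpl22l1 over Rpl22 was 1.37 times higher at 48 h than at 24 h. The ratio fell to 0.472 times for Rpl7l1 over Rpl7, 0.740 times for Rps27l over Rps27 and 0.826 times for Rpl36al over Rpl36a. All 4 had p = 0.005 (exact permutation within genotype, two-sided; adjusted p = 0.0125 over 10 tests), while Rps4l over Rps4x gave 1.07 times with p = 0.635. None of the 5 genotype effects passed (exact p = 0.135 to 0.70).

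**Figure D3:**
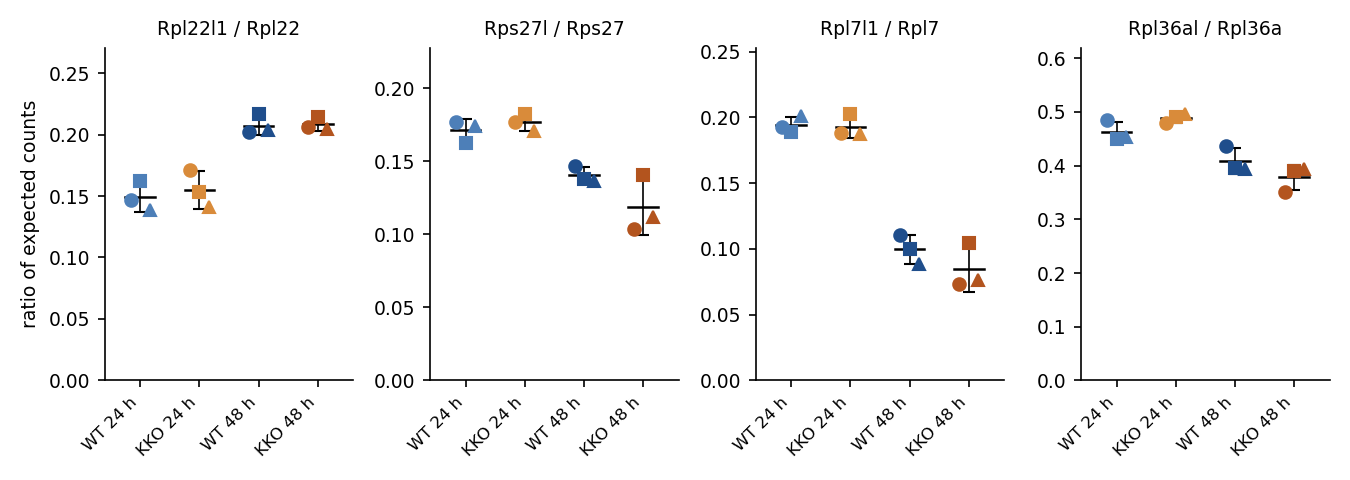
Ratio of expected counts of each paralog to its partner (vertical axis, linear from 0) in the libraries of the 4 groups; points are libraries, lines group means and bars 1 SD. Rpl22l1 over Rpl22 is higher at 48 h and the other 3 ratios are lower, in both genotypes.

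Mitochondrial ribosomal proteins and the factors that build ribosomes mostly fell with time. Of 77 mitochondrial ribosomal protein genes, 4 rose and 48 fell in WT (median -0.28) and 6 rose and 43 fell in KKO (-0.26). Their sum was 0.468% of counts in WT and 0.461% in KKO at 24 h, and 0.383% and 0.372% at 48 h. Of 29 ribosome biogenesis factors, the machinery that makes ribosomes, 28 fell in WT (median -0.75) and 29 in KKO (-0.98), none rising. The ratio of cytosolic ribosomal proteins to mitochondrial ones was 1.57 times and to the biogenesis factors 2.31 times higher at 48 h (exact permutation, p = 0.005 each). Mrpl3 fell by -0.60 in WT and -0.81 in KKO, Mrpl14 rose by 0.34 and 0.51, and Mrps33 by 0.27 and 0.43. The biogenesis factor Rrp12 changed by -1.21 and -1.22 and Nip7 by -0.75 and -0.81. Of 28 translation initiation factors, 21 fell and 1 rose in WT and 20 fell in KKO; Eif2s2 rose by 0.15 in WT and Eif2b5 and Eif3g changed by -0.43 and -0.48 there. Among 18 other TOP-regulated mRNAs, 7 rose and 5 fell in WT and 8 rose and 5 fell in KKO, beside 31.0% higher and 29.7% lower of all tested genes in WT and 34.4% and 33.4% in KKO. The elongation factors Eef1a1 and Eef2 rose, by 0.50 and 0.39 in WT, while the elongation factor Eef1d and the histone chaperone Nap1l1 changed by -0.68 and -0.61 in WT and -0.70 and -0.67 in KKO. Fau and Rack1, which encode ribosomal proteins under other symbols, rose in both genotypes. Fau rose by 0.48 ± 0.09 (SE; adjusted p = 1.84e-04) in WT and 0.84 ± 0.09 (SE; adjusted p = 7.13e-07) in KKO, and Rack1 by 0.31 ± 0.07 (SE; adjusted p = 0.00202) and 0.52 ± 0.07 (SE; adjusted p = 1.55e-05). Among 15 genes that control TOP translation and mTORC1, 10 fell in WT and 12 in KKO, and 1 rose: Eif4ebp1, the translational repressor phosphorylated by mTORC1, by 1.77 ± 0.11 (SE; adjusted p = 1.63e-08) and 1.68 ± 0.11 (SE; adjusted p = 2.05e-08). Rptor changed by -0.58 in WT and Tsc2 by -0.40 and -0.54.

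At 24 h no ribosomal protein gene was called between KKO and WT. The median log2 change of the 86 was -0.06, and 3 lay above 0 and 83 below, beside 48.4% of all tested genes above 0. edgeR, DESeq2 and limma-voom each called 0, beside 2.33% of tested genes called by edgeR, and 0 had an unadjusted p under 0.05, beside 11.2%. At 48 h the median was 0.16 and 81 lay above 0, beside 49.4% of tested genes. Of the 86, 12 were called higher and 0 lower, which is close to the 12.4% of all tested genes called higher (24.3% called in all). An unadjusted edgeR p under 0.05 was found for 58 of the 86, beside 5056 of the 13196 tested genes. The 12 were Rpl36a, Rps21, Rpl39, Rps16, Rpl22, Rpl24, Rpl10, Rpl26, Rpl30, Rpl27a, Rps6 and Rps27. The KKO libraries lay wholly above WT for 27 of 86 genes, beside 17.1% of tested genes. In the other lists at 48 h, KKO against WT, 14 of 29 biogenesis factors were lower, beside 1574 of the 13196 tested genes. Among them were Nop58 at -0.37 and Dkc1 at -0.43. Eef2 at 0.23, Eef1a1 at 0.26 and Fau at 0.28 were higher. Eif4ebp1 was higher at 0.39 (and at 0.47 at 24 h), and Larp1 and Larp4 were lower at -0.35 and -0.28. These calls also depended on single libraries. With single libraries left out, the Eif4ebp1 call at 24 h held in 6 of 12 runs. At 48 h the calls of Dkc1, Eef1a1, Fau, Larp1 and Larp4 each held in 8 of 12 runs. Those of Nop58 and Eif4ebp1 held in 9 and that of Eef2 in 10. Of the 77 mitochondrial ribosomal proteins 3 were higher and 3 lower, beside 12.4% of tested genes called higher and 24.3% called in all.

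Rpl36a, a large-subunit protein encoded on X, had the smallest p. Rpl36a stood at 443, 497 and 473 CPM in WT at 24 h, at 487, 427 and 443 CPM in KKO at 24 h, at 534, 616 and 632 CPM in WT at 48 h and at 783, 649 and 705 CPM in KKO at 48 h. At 48 h the KKO values lay above the WT values, with a log2 difference of 0.26 ± 0.08 (SE; adjusted p = 0.0336); the 24 h difference was -0.06 ± 0.08 (SE; adjusted p = 0.937). Rps21 differed by 0.24 ± 0.08 (SE; adjusted p = 0.036), Rpl39 by 0.23 ± 0.07 (SE; adjusted p = 0.0365) and Rps16 by 0.23 ± 0.07 (SE; adjusted p = 0.0377). As a share of counts the genes were at 10.7 ± 0.662% in KKO against 9.80 ± 0.570% in WT at 48 h (exact permutation test, two-sided, p = 0.2, where 3 against 3 cannot go below 0.1), and the ranges overlapped, since KKO replicate 2, at 10.05%, was below WT replicate 3, at 10.28%. At 24 h the share was 7.85% in KKO against 8.205% in WT (exact permutation p = 0.2).

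The count of 12 depended on single libraries. Leaving out WT replicate 1 or 2, or KKO replicate 1 or 3, at 48 h left 0 called, without KKO replicate 3 at 24 h there was 1, without WT replicate 3 at 48 h there were 32, and without KKO replicate 2 at 48 h there were 69. Without the 2 libraries that hold both Xist and Ddx3y, 0 were called. Among the 48 h libraries with Xist above and Ddx3y under 1 CPM the share was 9.17 and 9.95% in WT and 10.05% in KKO, and in those with Ddx3y above and Xist under 1 CPM it was 10.28% in WT and 11.37% in KKO. B cell and CD8 markers, named above, were also higher in KKO, and their part in the result was not tested.

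The change with time was larger in KKO than in WT for 83 of the 86 genes, beside 48.3% of tested genes, and for all 77 subunit proteins. This difference of KKO effects had a median of 0.22 log2, and 49 of 86 had an unadjusted p under 0.05 (22.6% of tested genes). However, edgeR called 0 and DESeq2 4, beside 4.18% of tested genes called by edgeR. The genes share libraries and mostly moved together within them, so these counts are not over independent genes. The same holds for the counts between genotypes given above. The largest differences among the subunit proteins, Rps27 at 0.33 ± 0.11 (SE; adjusted p = 0.106) and Rpl36a at 0.32 ± 0.12 (SE; adjusted p = 0.124), missed the threshold. Without KKO replicate 2 at 48 h, 52 were called. With the replicate number as a block, 12 were called.

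**Figure D4:**
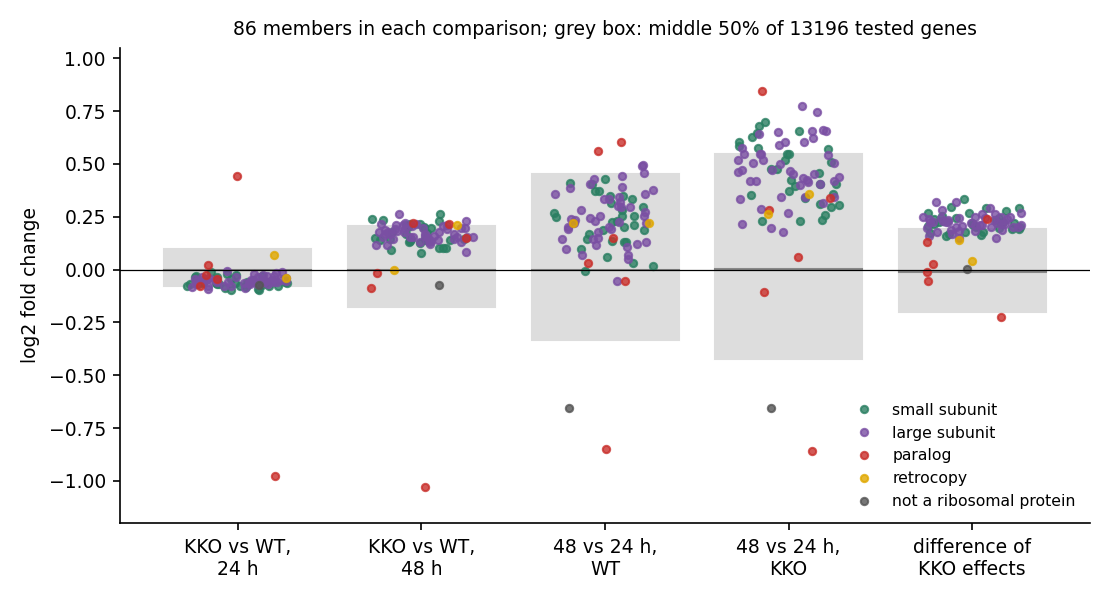
log2 fold change (vertical axis) of the 86 genes in the 5 comparisons, coloured by class; the grey boxes span the middle 50% and the grey line the median of 13196 tested genes. The subunit proteins lie in a narrow band near 0.16 for KKO against WT at 48 h and near -0.06 at 24 h, and spread from near 0 upwards for the changes with time.

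The change with time in KKO followed that in WT over the 86 genes (Pearson r = 0.952, Spearman rho = 0.924, a description over genes, which share the libraries of each genotype and are not independent). Rpl7l1 and Rps19bp1, the 2 genes that fell, changed by nearly the same amount in WT and KKO, with differences of -0.01 ± 0.11 and 0.00 ± 0.12 (SE).

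**Figure D5:**
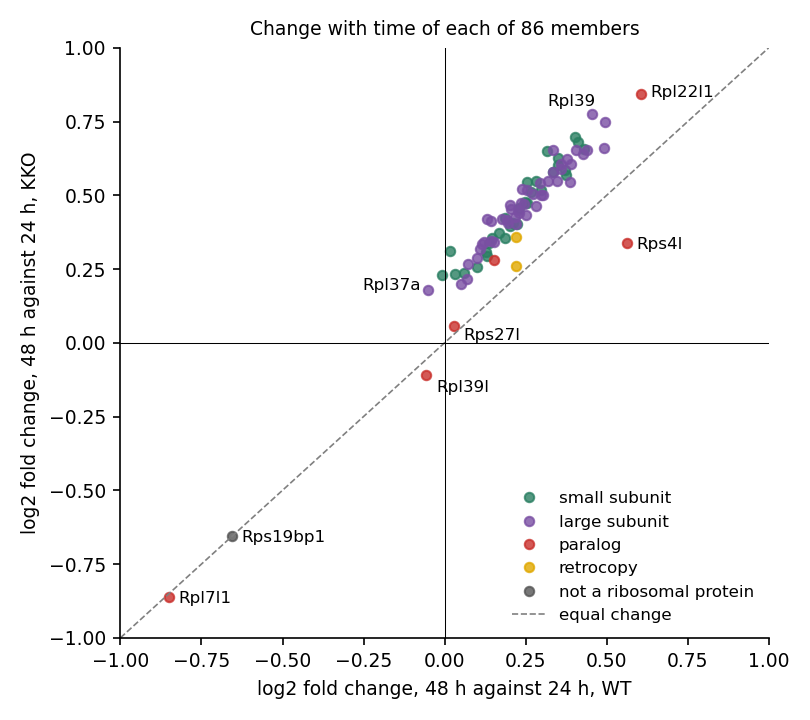
log2 fold change from 24 h to 48 h in WT (horizontal axis) and KKO (vertical axis) of each of the 86 genes, coloured by class; the dashed line marks equal change. Of the 86 genes, 83 lie above the line, and Rpl22l1 and Rpl39 are the highest.

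Levels can be compared between genes only per length. Per kb of the longest RefSeq-linked transcript, which 84 of the 86 have, the 77 subunit proteins had a median of 1237 CPM per kb and ranged from 76.1 for Rps15a, whose longest linked transcript has 5179 bases, to 3689 for Rps2. The highest were Rps2, Rpl41 at 3174 and Rplp0 at 2849 CPM per kb. With the median transcript length, chosen after these levels were seen, Rps24 at 2982 CPM per kb came before Rplp0. The lowest of all were Rpl39l at 0.419, Rps4l at 4.45 and Rps19bp1 at 37.8 CPM per kb. The expected counts of Rps2 were not whole in any of the 12 libraries, so its level is uncertain.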

How the data were processed

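The 12 libraries hold RSEM expected counts per gene, unnormalised, as the authors deposited them; per the submitters' processing notes the build was mm10 and FastQC was used, while the series text names a human reference. Versions, aligner and annotation are not given in the sources used here. Another 6 columns had no sample label and were not used. RSEM divides reads among similar genes: 30 of the 86 genes had values that were not whole in at least 1 library, 21 of them in all 12.

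After rounding, the expected counts went into edgeR 4.0.16 (R 4.3.3): filterByExpr, TMM, robust quasi-likelihood F tests, 1 mean per group, 8 residual degrees of freedom and Benjamini-Hochberg over 13196 genes, calling at 0.05. DESeq2 1.42.0 and limma 3.58.1 were alternatives. Summed shares and ratios had exact permutation tests. The script was tested on simulated data. Library totals were 17.8 to 32.6 M (mega) counts. Gene lengths came from GENCODE M21, starts from RefSeq.

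The members and gene lists were chosen with earlier results of these data known. Named genes were, per comparison, the 4 called with the smallest p in each direction, the paralog pairs, Rps6, Rpsa, Rplp0 to Rplp2, the 3 highest and 3 lowest levels per kb, Rps19bp1 and, from each list, the 2 called with the smallest p each way, or, where none was called, the smallest p; not all of these list genes are printed, and a gene of these lists is not reported here; Rpl28, Rps25 and Rpl37a were added after their values were seen. The covariate for Ddx3y, the median transcript length and the longer pyrimidine run were also added after the data were seen. Replicate numbers were checked for pairing: deviations of same-numbered libraries correlated at 0.126, 0.103 and 0.343 between times in WT, and at 0.0287, 0.0852 and 0.0408 in KKO.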

Additional observations from a re-analysis of the deposited data

How the results depend on the processing

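With single libraries left out, 50 to 69 genes rose with time in WT and 78 to 81 in KKO, and 2 fell in each run; the WT call of Rpl36al held in 7 of 12 runs and that of Rps4l in 9. The medians were 0.20 to 0.28 and 0.41 to 0.49. The 12 genes called higher in KKO at 48 h became 26 with a filter of 1 CPM in 6 libraries, 26 with upper-quartile scaling, 27 with DESeq2, 1 with no low-count filter, 0 with only the libraries compared, 0 without the 2 libraries holding both Xist and Ddx3y and 0 at an adjusted p under 0.01, and 0 to 69 when single libraries were left out (0 to 1 called lower). The median stayed between 0.11 and 0.20. For the difference of KKO effects, 0 became 4 with DESeq2, 8 with Ddx3y as a covariate and 0 to 52 when single libraries were left out.

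With the replicate number as a block, the paired fit called 1 gene higher in KKO at 48 h and 12 for the difference of KKO effects, 69 in WT and 81 in KKO with time. By the check in the methods, same-numbered libraries deviated together only weakly over time, at 0.103 to 0.343 in WT and 0.0287 to 0.0852 in KKO. Between genotypes the values ran from -0.317 to 0.224. Xist and Ddx3y readings matched by number over time in WT but not in KKO replicates 1 and 3. KKO replicate 1 had both above 1 CPM at 24 h and only Ddx3y at 48 h, and replicate 3 the reverse. Pairing by number was therefore not established, least of all in KKO.

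Among paralog ratios (log2), the genotype effect of Rpl22l1 over Rpl22 ran from -0.0063 to 0.064 when single libraries were left out, that of Rpl36al over Rpl36a from -0.031 to 0.0097, that of Rps4l over Rps4x from 0.21 to 0.44 and its time effect from -0.023 to 0.22. Reversals were -0.0063 without KKO replicate 1 at 24 h, 0.0011, 0.0087 and 0.0097 without the first replicate of WT 24 h, of WT 48 h and of KKO 48 h, and -0.011 and -0.023 without WT replicate 2 at 24 h and WT replicate 1 at 48 h; the Rps4l genotype effect was 0.43 (exact permutation p = 0.015) without the latter. The cause was not tested.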
